A study of Mus musculus with 6 samples.

Results

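Solute carrier genes encode membrane proteins that move amino acids, sugars, nucleosides, vitamins, metals and other ions across the plasma membrane and the membranes of organelles. An activated T cell is known to need large amounts of amino acids, glucose and iron to grow and divide. It takes up amino acids through carriers such as ASCT2 (Slc1a5) and LAT1 (Slc7a5). Phagocytes and basophils use other carriers of the same superfamily, among them metal carriers of the phagosome and carriers of organic cations such as histamine. The members were all gene symbols of the deposited table made of Slc, a family number, the letter a and a member number, without Slc4a1 and Slc2a3. There were 134 such symbols among 8468 genes, and 71 of them reached at least 1 FPKM (fragments scaled to gene length and to the reads of the library) in 3 or more of the 6 libraries and were analysed. One symbol, Slc9a3r2, matches the pattern but encodes an adaptor protein and not a carrier, and it stayed below this level.

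RNA of T cells isolated from the spleen with a kit was compared between Balb/c mice that had been given haematopoietic stem cells of another animal (haematopoietic stem cell transplantation, HSCT). Donors of the syn-HSCT group (3 libraries) were also Balb/c, and those of the allo-HSCT group (3 libraries) were C57BL/6, so donor strain and type of transplant changed together and cannot be told apart. Age, conditioning of the hosts, time after transplant and pooling of animals are not stated in the labels, and the p-values rest on the spread among these libraries alone, which may be technical.

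Library totals recovered from the FPKM values were 15642385 to 17524496 reads. The table holds genes with 42.15% to 45.50% of these reads, and it lacks small differences. Of the 4825 genes with more than 100 reads a library, not 1 lay between -0.37 and 0.21 in the log2 ratio of its group means. The smallest rise among the 71 members was 0.22 and the smallest fall was -0.38 on that scale, so the members reach both edges of this gap. Carriers outside the table, such as Slc3a2, Slc38a2 or Slc16a1, are not analysed here. Of 14 listed T cell markers, 11 are in the table and all 11 were higher in allo-HSCT. Their summed level was 1287.0 to 1345.8 FPKM in syn-HSCT and 2294.4 to 2411.6 FPKM in allo-HSCT. Of 13 macrophage and monocyte markers, 8 are in the table and all 8 were lower, with sums of 2007.6 to 2520.8 FPKM in syn-HSCT and 583.5 to 759.7 FPKM in allo-HSCT. No tested marker of either list is at 0 in any library. The macrophage and monocyte sum was above the T cell sum in every syn-HSCT library of these isolates labelled as T cells. Lyz2 alone made up 1794.2, 1766.1 and 1341.2 FPKM of that sum in syn-HSCT replicates 1 to 3, and without Lyz2 it was below the T cell sum. Sums over different genes do not measure shares of cells. Because whole isolates were measured, fewer cells of a type and less RNA per cell cannot be told apart.

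The comparison asks how carrier expression differed between T cell isolates of allogeneic and syngeneic recipients. Of the 71 members, 33 rose and 34 fell in allo-HSCT (limma on log2(FPKM + 1), Benjamini-Hochberg adjusted p under 0.05 over all 5460 tested genes of the table). Among all tested genes 93.7% were called, 47.9% higher and 45.8% lower, so the members' shares of 46.5% higher and 47.9% lower were near the background. The median log2 fold change was 0.19 over the members and 0.20 over all tested genes. Both lie near the upper edge of the gap in the table (0.21), so they do not measure a typical change. The groups did not overlap in 66 of 71 members, against 91.0% of all tested genes. A log2 fold change of at least 1 in size was found in 1 rising member (3.74% of all tested genes) and in 4 falling members (7.91% of all tested genes). By the ratio of mean FPKM, which no pseudocount shrinks, 7 rising and 7 falling of the 71 members changed at least 2-fold. Among all tested genes 6.28% and 12.8% did. Of these falls, Slc38a5, Slc43a1, Slc22a4 and Slc22a21 passed the filter through syn-HSCT alone. Of these rises, Slc16a11 passed it through allo-HSCT alone. The filter limits how counts can be read, because 7 members reached 1 FPKM in no library of 1 of the groups, which are Slc38a5, Slc43a1, Slc8a1, Slc22a4, Slc22a21 and Slc27a3 in allo-HSCT and Slc16a11 in syn-HSCT. For these 7 the filter set both the direction and the lack of overlap between the groups. Just inside the filter lay Slc26a10, which reached 1 FPKM in 4 libraries with a highest value of 1.66 FPKM. Just outside lay Slc16a7, which reached 1.09 FPKM but passed 1 FPKM in the syn-HSCT replicates 1 and 2 only.

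**Figure D1:**
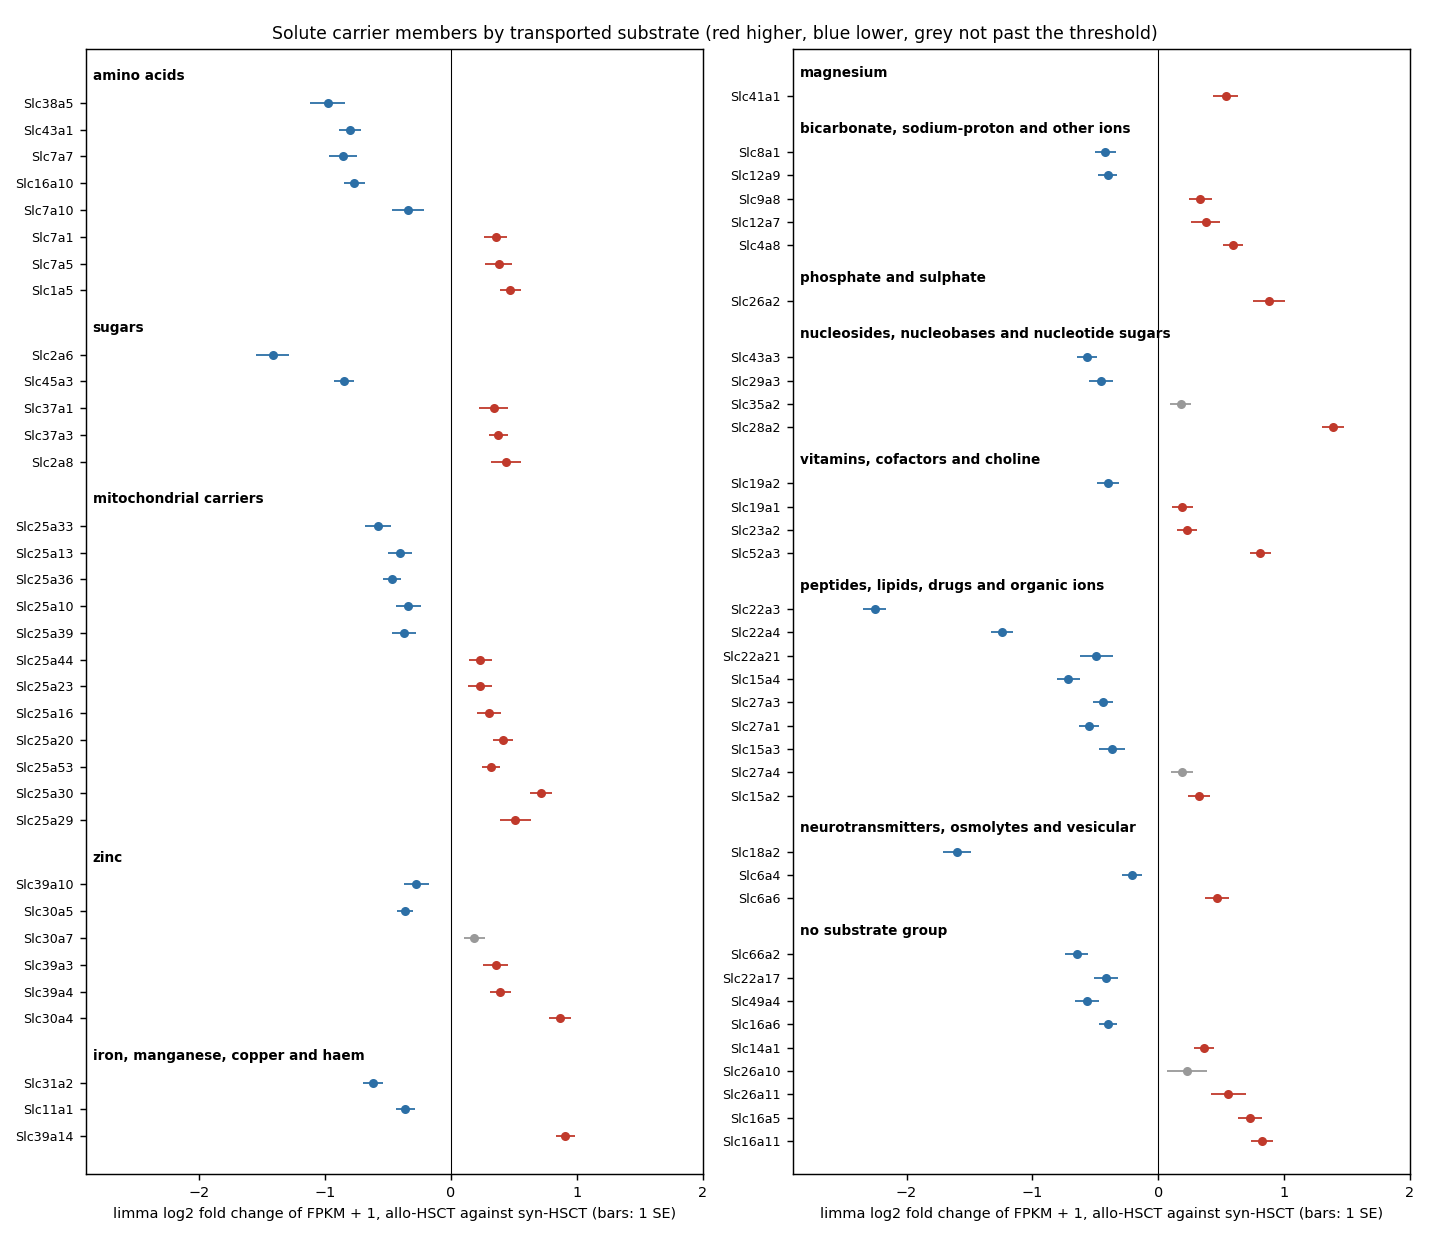
Fold change of 70 of the 71 solute carrier members, grouped by transported substrate. Points give the limma log2 fold change on log2(FPKM + 1), horizontal bars 1 SE, red members past the threshold and higher in allo-HSCT, blue lower, grey not past it. The peptide, lipid, drug and organic ion carriers lie mostly to the left (7 of 9 lower, next to 45.8% of all tested genes). Of the 7, Slc22a4, Slc22a21 and Slc27a3 passed the filter through syn-HSCT alone and so had to be lower. Most other groups hold members on both sides.

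The promoters of 4 members are shown because they are the largest fall (Slc22a3) and the largest rise (Slc28a2) on the log2(FPKM + 1) scale and a pair of falling members that carry the E-box CACGTG, the most frequent of 5 short motifs searched among falling members. Each window runs from 250 bases before to 50 bases after a RefSeq transcript start (GRCm38.p6), 5′ to 3′ on the gene's strand. Capitals mark motif matches.
Slc22a3: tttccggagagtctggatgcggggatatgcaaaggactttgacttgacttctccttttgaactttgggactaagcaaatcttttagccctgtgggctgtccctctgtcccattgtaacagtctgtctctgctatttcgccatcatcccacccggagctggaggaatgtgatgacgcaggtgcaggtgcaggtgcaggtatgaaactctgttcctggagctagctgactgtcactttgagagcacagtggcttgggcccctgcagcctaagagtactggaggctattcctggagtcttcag
Slc28a2: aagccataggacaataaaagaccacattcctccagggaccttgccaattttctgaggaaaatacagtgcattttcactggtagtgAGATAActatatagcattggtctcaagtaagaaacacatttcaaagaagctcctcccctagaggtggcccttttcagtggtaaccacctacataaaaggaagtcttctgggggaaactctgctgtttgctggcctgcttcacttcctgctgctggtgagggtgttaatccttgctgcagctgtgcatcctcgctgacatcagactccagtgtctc
Slc43a1: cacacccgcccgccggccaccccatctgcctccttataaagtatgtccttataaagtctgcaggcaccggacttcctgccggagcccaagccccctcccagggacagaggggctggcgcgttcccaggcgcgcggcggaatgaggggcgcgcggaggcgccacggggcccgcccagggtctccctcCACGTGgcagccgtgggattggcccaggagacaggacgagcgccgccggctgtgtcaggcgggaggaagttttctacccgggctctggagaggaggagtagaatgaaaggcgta
Slc25a36: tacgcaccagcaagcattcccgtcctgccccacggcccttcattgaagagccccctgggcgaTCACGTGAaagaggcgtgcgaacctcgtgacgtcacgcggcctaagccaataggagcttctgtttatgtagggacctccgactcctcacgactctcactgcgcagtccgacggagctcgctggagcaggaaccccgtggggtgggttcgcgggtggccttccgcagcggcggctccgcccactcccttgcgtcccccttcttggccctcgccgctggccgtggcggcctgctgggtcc

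The windows lie at chr17:12507655-12507954 on the minus strand (Slc22a3), chr2:122426185-122426484 on the plus strand (Slc28a2), chr2:84840073-84840372 on the plus strand (Slc43a1) and chr9:97110992-97111291 on the minus strand (Slc25a36). The E-box began 64 bases before the start in Slc43a1 and 187 bases before it in Slc25a36, where it lies inside the longer match TCACGTGA, the core of the motif known from lysosomal genes. In Slc28a2 the GATA motif AGATAA began 165 bases before the start, and no searched motif was found in this window of Slc22a3. Of the tested members, 54 have a window in the table used, 11 of them more than 1, and a gene counts as holding a motif when any of its windows does, on either strand. The E-box was found in 11 of 29 falling members with a window (37.9%) and in 2 of 21 rising members (9.52%), next to 12.1% of all falling and 9.97% of all rising tested genes and 8.09% of all genes with a window. Besides Slc43a1 and Slc25a36, the falling members with an E-box were Slc38a5, Slc25a33, Slc25a13, Slc30a5, Slc31a2, Slc12a9, Slc22a4, Slc27a1 and Slc49a4. The rising ones were Slc37a3 and Slc12a7. Of the falling members with an E-box, Slc43a1, Slc38a5 and Slc22a4 passed the filter through syn-HSCT alone, so their direction was set by the filter. AGATAA was found in 5 of 29 falling members (17.2%) and 3 of 21 rising members (14.3%), next to 7.99% of all falling, 9.54% of all rising and 12.7% of all genes. Among the falling members with AGATAA, Slc8a1 also passed the filter through syn-HSCT alone. The amino acid response element TGATGNAA was found in 2 of 29 falling members (6.9%) and 0 of 21 rising members, next to 3.03%, 3.21% and 4.51%. The AP-1 motif TGANTCA was found in 2 of 29 (6.9%) and 1 of 21 (4.76%), next to 6.05%, 6.61% and 8.97%, and TCACGTGA in 1 of 29 (3.45%) and 1 of 21 (4.76%), next to 2.08%, 2.08% and 1.12%. These matches are descriptions of letters in a window. They were counted after the members' directions were known and were not tested.

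Of 8 tested amino acid carriers, the 3 with the highest levels rose and 5 fell (median log2 fold change -0.56). The shares over all tested genes were 47.9% higher and 45.8% lower. Of the falling ones Slc38a5 and Slc43a1 passed the filter through syn-HSCT alone. Their direction and lack of overlap, and with them part of the count and the median, were set by the filter. The summed level of the 8 carriers was 100.6 to 109.0 FPKM in syn-HSCT and 107.9 to 128.3 FPKM in allo-HSCT. Slc1a5, the glutamine and neutral amino acid exchanger ASCT2, had the highest level of all members. It stood at 44.8, 42.3 and 43.0 FPKM in syn-HSCT replicates 1 to 3 and at 54.4, 63.7 and 63.8 FPKM in allo-HSCT replicates 1 to 3. The groups did not overlap, and replicate 1 was the lowest allo-HSCT library. The rise was 1.40-fold (log2 fold change 0.47, SE 0.0828, limma adjusted p = 5.46e-04). Slc7a5, the light chain of the large neutral amino acid exchanger LAT1, stood at 27.5, 23.0 and 24.5 FPKM in syn-HSCT and at 27.8, 35.7 and 35.3 FPKM in allo-HSCT. Here allo-HSCT replicate 1 lay just above the highest syn-HSCT library, and the rise was 1.32-fold (log2 fold change 0.38, SE 0.109, limma adjusted p = 0.00801). Slc7a1, which imports arginine and lysine, rose 1.31-fold from 12.2 ± 0.123 to 16 ± 1.98 FPKM (SD, n = 3 in each group, limma adjusted p = 0.00503). The T cell marker sums given above were also higher in allo-HSCT. All 5 tested B and plasma cell markers were higher. Sums over that list were 154.1 to 163.4 FPKM in syn-HSCT and 217.8 to 295.5 FPKM in allo-HSCT. Of 9 tested erythroid markers 4 were higher and 3 lower, with sums of 256.3 to 280.4 FPKM and 323.7 to 401.4 FPKM. The part of these lists in the rises of Slc1a5, Slc7a5 and Slc7a1 was not tested.

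The falling amino acid carriers started from lower levels. Slc38a5, a sodium-coupled glutamine, asparagine and histidine carrier, stood at 1.24, 2.11 and 2.22 FPKM in syn-HSCT and at 0.317, 0.593 and 0.393 FPKM in allo-HSCT. The fall was 4.27-fold, on 172 and 41 reads over the 3 libraries of each group (log2 fold change -0.98, SE 0.138, limma adjusted p = 1.37e-04). Because Slc38a5 passed the filter through syn-HSCT alone, its groups could not overlap. Slc43a1, the large neutral amino acid carrier LAT3, stood at 2.27, 2.10 and 2.59 FPKM in syn-HSCT and at 0.756, 0.975 and 0.975 FPKM in allo-HSCT. It fell 2.57-fold (log2 fold change -0.80, SE 0.0875, limma adjusted p = 2.57e-05), and the filter again left no room for overlap. Slc7a7, a light chain of cationic amino acid exchange known to work in macrophages, fell 1.95-fold from 11 ± 0.994 to 5.61 ± 0.881 FPKM (limma adjusted p = 7.13e-05). Slc16a10, which carries aromatic amino acids, fell 1.89-fold from 7.02 ± 0.507 to 3.71 ± 0.135 FPKM (limma adjusted p = 1.88e-05). Slc7a10, a light chain for small neutral amino acids, fell 1.55-fold from 1.30 ± 0.0806 to 0.839 ± 0.349 FPKM (limma adjusted p = 0.0251), a call that held under 9 of 13 alternatives (adjusted p 0.00378 to 0.14). Both light chains that fell and the one that rose pair with the heavy chain Slc3a2 in the cell. With a mean of at least 5 FPKM required, the median of the amino acid group turned to 0.36, where 5 of its 8 members remain.

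Sugar carriers were divided as well, with 3 higher and 2 lower of 5 (median log2 fold change 0.34), next to 47.9% and 45.8% of all tested genes. The 2 falls were larger than any of the rises. Slc2a6, the glucose carrier family member GLUT6 that macrophages are known to express, stood at 9.86, 9.5 and 8.79 FPKM in syn-HSCT and at 3.68, 2.13 and 3.01 FPKM in allo-HSCT. The groups lay far apart, and the fall was 3.19-fold (log2 fold change -1.42, SE 0.133, limma adjusted p = 9.16e-06). Slc45a3, the member of this group with the highest level, fell 1.91-fold from 15.1 ± 0.877 to 7.93 ± 0.531 FPKM (limma adjusted p = 1.04e-05). Slc2a8, the intracellular glucose carrier GLUT8, stood at 5.36, 3.92 and 3.84 FPKM in syn-HSCT and at 5.50, 6.65 and 6.57 FPKM in allo-HSCT. Replicate 1 of each group lay next to the other group, and the rise was 1.43-fold (limma adjusted p = 0.00603). Slc37a3, of the sugar-phosphate carrier family, rose 1.35-fold from 6.33 ± 0.180 to 8.53 ± 0.490 FPKM (limma adjusted p = 0.00119). Slc37a1 of the same family was 1.32-fold higher with overlapping groups (limma adjusted p = 0.0194), a call that held under 9 of 14 alternatives (adjusted p 4.09e-05 to 0.178).

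**Figure D2:**
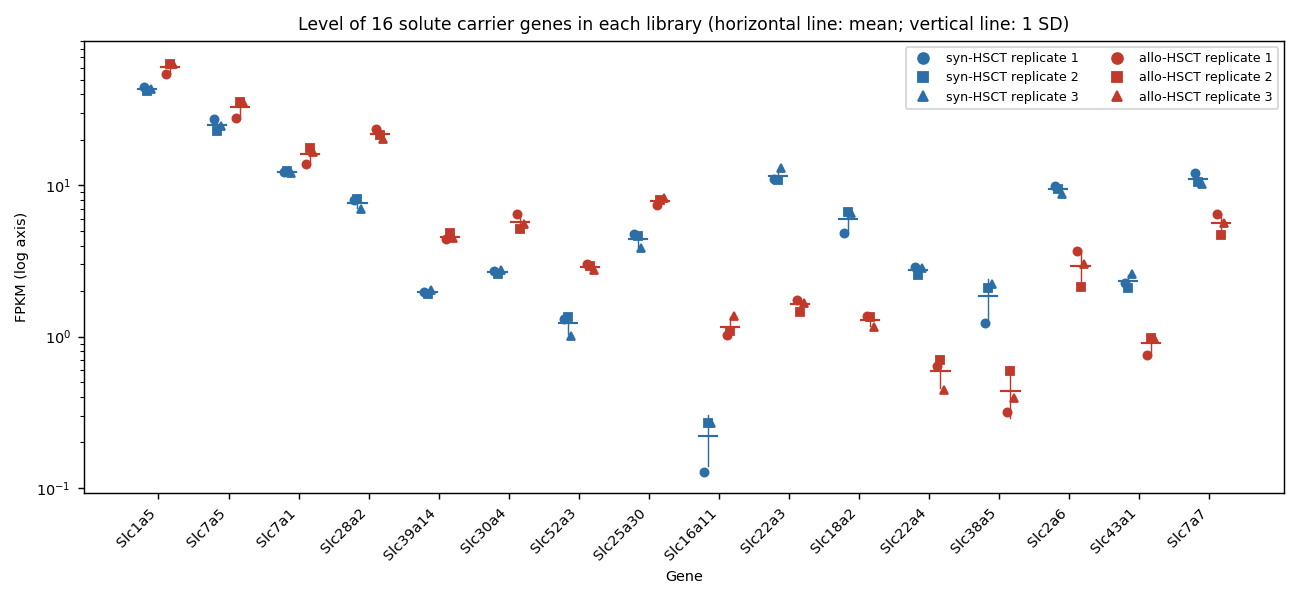
FPKM of 16 solute carrier genes in each of the 6 libraries, on a log axis. Blue stands for syn-HSCT and red for allo-HSCT, symbols mark the replicate, horizontal lines the group mean and vertical lines 1 SD. Slc22a3 falls from 10.9 to 13 FPKM in syn-HSCT to 1.47 to 1.76 FPKM in allo-HSCT, and Slc28a2 rises from 7.02 to 8.08 FPKM to 20.3 to 23.7 FPKM.

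The carriers of the SLC25 family, which exchange metabolites across the inner mitochondrial membrane, form the group with most tested members. Of 13 members, 8 rose and 5 fell, with log2 fold changes from -0.58 to 0.71 and a median of 0.23. Among all tested genes 47.9% rose and 45.8% fell, and whether this group differs from them was not tested. Slc25a20, the carnitine-acylcarnitine carrier that brings fatty acids to oxidation, had the highest level. It stood at 20.6, 21.8 and 22.4 FPKM in syn-HSCT and at 31.5, 27.0 and 29.0 FPKM in allo-HSCT. All allo-HSCT libraries were above all syn-HSCT libraries, with replicate 1 the highest, and the rise was 1.35-fold (log2 fold change 0.41, SE 0.0803, limma adjusted p = 9.75e-04). Slc25a30, a carrier related to the uncoupling proteins, rose 1.78-fold from 4.40 ± 0.462 to 7.84 ± 0.410 FPKM (limma adjusted p = 5.92e-05). Slc25a29, a carrier of basic amino acids, rose 1.88-fold from 0.992 ± 0.135 to 1.86 ± 0.488 FPKM on 97 and 184 reads (limma adjusted p = 0.00323). Of the carriers of pyrimidine nucleotides, both tested members fell. Slc25a33 stood at 4.56, 5.86 and 5.92 FPKM in syn-HSCT and at 3.05, 3.34 and 3.50 FPKM in allo-HSCT, and Slc25a36 at 16.1, 15.9 and 17.0 FPKM and at 12, 11.4 and 11.2 FPKM. Neither showed overlap between the groups, with falls of 1.65-fold (limma adjusted p = 5.10e-04) and 1.42-fold (limma adjusted p = 2.37e-04). Slc25a13, the aspartate-glutamate carrier citrin, fell 1.44-fold from 3.91 ± 0.386 to 2.71 ± 0.352 FPKM (limma adjusted p = 0.00329). The dicarboxylate carrier Slc25a10 and the glutathione importer Slc25a39 fell 1.31-fold and 1.30-fold. Further rises, in Slc25a16, Slc25a23, Slc25a44 and Slc25a53, were 1.21-fold to 1.48-fold. Each of these 4 calls was lost under at least 1 alternative, Slc25a16 under 1 of 14 and Slc25a23 under 6 of 14.

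Zinc carriers fall into ZnT proteins (SLC30), which move zinc out of the cytosol, and ZIP proteins (SLC39), which move it in. Of 6 tested members 3 rose, 2 fell and 1 did not pass the threshold, where 47.9% of all tested genes rose and 45.8% fell. Both families held members of either sign (median log2 fold change 0.27). Slc30a4, the ZnT protein that loads vesicles, stood at 2.70, 2.60 and 2.76 FPKM in syn-HSCT and at 6.45, 5.18 and 5.57 FPKM in allo-HSCT. The lowest allo-HSCT library was well above the highest syn-HSCT library, and the rise was 2.13-fold (log2 fold change 0.86, SE 0.0879, limma adjusted p = 1.65e-05). Slc30a5, the ZnT protein of the early secretory pathway and the zinc carrier with the highest level, stood at 29.1, 28.4 and 28.9 FPKM in syn-HSCT and at 22.6, 21.6 and 22.3 FPKM in allo-HSCT. It fell 1.30-fold with tight replicates and no overlap (limma adjusted p = 7.21e-04). The importers Slc39a4 and Slc39a3 rose 1.37-fold (limma adjusted p = 0.00179) and 1.35-fold (limma adjusted p = 0.00810). Slc39a10, another importer, was 1.35-fold lower with overlapping groups (limma adjusted p = 0.0242), a call that held under 7 of 13 alternatives (adjusted p 1.23e-04 to 0.169). Slc30a7, the Golgi member, stood at 3.90 ± 0.285 and 4.58 ± 0.372 FPKM and did not pass (limma adjusted p = 0.0567). The summed level of the 6 was 46.3 to 46.9 FPKM in syn-HSCT and 45.4 to 47.1 FPKM in allo-HSCT.

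Of the carriers of iron, manganese and copper, 1 rose and 2 fell, next to 47.9% and 45.8% of all tested genes. Slc39a14, the importer ZIP14 for iron, manganese and zinc, stood at 1.96, 1.91 and 2.03 FPKM in syn-HSCT and at 4.40, 4.87 and 4.47 FPKM in allo-HSCT. The replicates were close within each group, and the rise was 2.32-fold (log2 fold change 0.91, SE 0.0753, limma adjusted p = 3.99e-06). Slc11a1, the phagosomal metal carrier NRAMP1 of macrophages and granulocytes, stood at 21.3, 22.2 and 19.3 FPKM in syn-HSCT and at 15.9, 16.4 and 15.9 FPKM in allo-HSCT. It fell 1.30-fold without overlap (log2 fold change -0.36, SE 0.0763, limma adjusted p = 0.00154). Slc31a2, a copper carrier of endosomes and lysosomes, fell 1.65-fold from 8.24 ± 0.360 to 5.0 ± 0.348 FPKM (limma adjusted p = 7.23e-05). The macrophage and monocyte marker sums given above were also lower in allo-HSCT. Of 13 listed markers of granulocytes and their precursors 9 are in the table, none at 0, with 4 lower and 5 higher. Their sums were 1649.5 to 1670.3 FPKM in syn-HSCT and 854.1 to 991.9 FPKM in allo-HSCT. Mpo, Prtn3, Elane and Ctsg fell (Mpo from a mean of 512.2 to 88.0 FPKM). Ngp, Ltf, Lcn2, Mmp9 and Retnlg rose (Ngp from a mean of 234.2 to 385.4 FPKM), against the direction of the sums. The part of both lists in the falls of Slc11a1, Slc31a2, Slc7a7 and Slc2a6 was not tested. The magnesium carrier Slc41a1 stood at 8.11, 8.98 and 8.27 FPKM in syn-HSCT and at 10.9, 13.6 and 13.8 FPKM in allo-HSCT, with replicate 1 the lowest of the latter, and rose 1.51-fold (limma adjusted p = 7.19e-04).

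Among carriers of sodium, potassium, chloride, bicarbonate and calcium, 3 rose and 2 fell of 5 (median log2 fold change 0.33). The same shares over all tested genes were 47.9% and 45.8%. Slc12a7, the potassium-chloride cotransporter KCC4, had the highest level and stood at 21.5, 22.4 and 25.5 FPKM in syn-HSCT and at 25.8, 35.0 and 30.8 FPKM in allo-HSCT. The groups all but touched, and the rise was 1.32-fold (limma adjusted p = 0.0101). Slc4a8, a sodium-driven bicarbonate-chloride exchanger, rose 1.95-fold from 1.17 ± 0.131 to 2.27 ± 0.0981 FPKM (limma adjusted p = 8.65e-05). Slc9a8, a sodium-proton exchanger of endomembranes, rose 1.30-fold (limma adjusted p = 0.00560), and its call was lost with the length trend removed (adjusted p 2.06e-05 to 0.11 over 14 alternatives). The sodium-calcium exchanger Slc8a1 fell 1.75-fold from 1.45 ± 0.201 to 0.827 ± 0.0933 FPKM (limma adjusted p = 0.00135), and Slc12a9 fell 1.40-fold (limma adjusted p = 9.00e-04). Slc8a1 passed the filter through syn-HSCT alone, so its direction, and with it part of the count and the median, was set by the filter. The sulphate carrier Slc26a2 stood at 3.11, 2.76 and 1.84 FPKM in syn-HSCT and at 5.14, 5.72 and 5.66 FPKM in allo-HSCT. The syn-HSCT libraries were the more scattered ones, and the rise was 2.14-fold (log2 fold change 0.88, SE 0.128, limma adjusted p = 1.67e-04).

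Slc28a2, the concentrative carrier CNT2 that takes up purine nucleosides with sodium, was the member with the largest log2 fold change upwards on the log2(FPKM + 1) scale, while the low Slc16a11 had the larger ratio of means. Slc28a2 stood at 7.99, 8.08 and 7.02 FPKM in syn-HSCT and at 23.7, 21.3 and 20.3 FPKM in allo-HSCT. The lowest allo-HSCT library was more than double the highest syn-HSCT library. The rise was 2.83-fold on 1590 and 4553 reads (log2 fold change 1.39, SE 0.087, limma adjusted p = 6.51e-07). RefSeq lists a neighbouring gene of the same name stem, Slc28a2b, on chromosome 2, and it is not stated how reads of similar copies were assigned, so this value is uncertain. Of the other tested members of this group 2 fell and 1 did not pass, where 45.8% of all tested genes fell. Slc43a3, a purine nucleobase carrier, fell 1.52-fold from 17.2 ± 0.732 to 11.3 ± 0.852 FPKM (limma adjusted p = 1.37e-04). Slc29a3, the equilibrative nucleoside carrier of lysosomes, fell 1.42-fold from 10.9 ± 1.30 to 7.70 ± 0.520 FPKM (limma adjusted p = 0.00168). Slc35a2, which brings UDP-galactose into the Golgi, stood at 4.22 ± 0.200 and 4.91 ± 0.426 FPKM and did not pass (limma adjusted p = 0.0617). The nucleoside carriers Slc29a4 and Slc28a1 were under the filter and not tested, with means of 0.477 and 0.825 FPKM for Slc29a4 and 0.0213 and 0.0691 FPKM for Slc28a1 in syn-HSCT and allo-HSCT.

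Of 4 tested vitamin carriers 3 rose and 1 fell, and only 1 of the rises was large. Their median log2 fold change was 0.21. Of all tested genes 47.9% rose, with a median of 0.20, and both medians lie near the upper edge of the gap in the table. Slc52a3, a riboflavin carrier, stood at 1.32, 1.34 and 1.02 FPKM in syn-HSCT and at 3.04, 2.91 and 2.75 FPKM in allo-HSCT. All allo-HSCT values were above all syn-HSCT values, on 169 and 404 reads, and the rise was 2.36-fold (log2 fold change 0.81, SE 0.0852, limma adjusted p = 2.04e-05). The vitamin C carrier Slc23a2 was 1.2-fold higher (limma adjusted p = 0.0211), a call that held under 10 of 14 alternatives (adjusted p 0.00510 to 0.513). The reduced folate carrier Slc19a1 was 1.17-fold higher and next to the threshold (limma adjusted p = 0.0496), and its call held under 6 of 14 alternatives (adjusted p 0.0105 to 0.198). The thiamine carrier Slc19a2 fell 1.37-fold from 7.61 ± 0.549 to 5.54 ± 0.534 FPKM (limma adjusted p = 0.00231).

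Of 9 tested carriers of peptides, lipids, drugs and organic ions, 7 fell, 1 rose and 1 did not pass, with a median log2 fold change of -0.49, and their summed level was 46.1 to 49.4 FPKM in syn-HSCT and 27.4 to 28.6 FPKM in allo-HSCT. Of all tested genes 45.8% fell. Of the 7 falling members 3 (Slc22a4, Slc22a21 and Slc27a3) passed the filter through syn-HSCT alone. These had to be lower in allo-HSCT and without overlap, which set part of the count and the median. Slc22a3, the organic cation carrier OCT3 that moves histamine and other monoamines, showed the largest fall of all members. It stood at 10.9, 10.9 and 13 FPKM in syn-HSCT and at 1.76, 1.47 and 1.68 FPKM in allo-HSCT. The groups were far apart and each was tight, on 2009 and 288 reads. The fall was 7.10-fold (log2 fold change -2.26, SE 0.0913, limma adjusted p = 4.67e-08). Slc22a4, the ergothioneine carrier OCTN1, stood at 2.87, 2.56 and 2.84 FPKM in syn-HSCT and at 0.639, 0.700 and 0.441 FPKM in allo-HSCT. It fell 4.64-fold, on 341 and 75 reads (log2 fold change -1.24, SE 0.0869, limma adjusted p = 1.29e-06). Slc22a21, its close relative in the mouse, fell 2.01-fold from 1.32 ± 0.294 to 0.657 ± 0.275 FPKM (limma adjusted p = 0.00512), and reads may be shared between such paralogs.

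The same monoamines are packed into vesicles by Slc18a2, the vesicular carrier VMAT2, which showed the second largest fall. It stood at 4.84, 6.65 and 6.52 FPKM in syn-HSCT and at 1.37, 1.35 and 1.16 FPKM in allo-HSCT. The lowest syn-HSCT library was still far above all allo-HSCT libraries, and the fall was 4.64-fold (log2 fold change -1.60, SE 0.111, limma adjusted p = 1.18e-06). Slc6a4, the serotonin carrier of the plasma membrane, was 1.33-fold lower (limma adjusted p = 0.0280), a call that held under 6 of 13 alternatives (adjusted p 5.76e-04 to 0.386). Slc22a3 and Slc18a2 are known in basophils and mast cells. Of 6 listed markers of these cells 5 are in the table, none is at 0 in any library, 3 were lower and 1 was higher, and their summed level overlapped, at 64.7 to 72.0 FPKM in syn-HSCT and 56.7 to 81.9 FPKM in allo-HSCT. Kit stood at 15.0 and 5.09 FPKM on average in syn-HSCT and allo-HSCT, and Fcer1a at 7.44 and 18.8 FPKM. Slc18a2 and Slc6a4 are also known in platelets and megakaryocytes. Of 5 listed megakaryocyte markers 3 are in the table, none at 0, and all 3 were lower, with sums of 34.4 to 40.9 FPKM in syn-HSCT and 18.6 to 29.3 FPKM in allo-HSCT. The part of these cells in the values of Slc22a3, Slc18a2 and Slc6a4 was not tested. The taurine carrier Slc6a6 stood at 16.5, 15.0 and 13.5 FPKM in syn-HSCT and at 18.9, 22.9 and 21.5 FPKM in allo-HSCT and rose 1.41-fold without overlap (limma adjusted p = 0.00151).

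The endosomal and lysosomal histidine and peptide carriers Slc15a4 and Slc15a3, known from dendritic cells and macrophages, both fell. Slc15a4 stood at 6.70, 6.13 and 5.32 FPKM in syn-HSCT and at 3.06, 3.41 and 3.38 FPKM in allo-HSCT, 1.84-fold lower (limma adjusted p = 7.69e-05). Slc15a3 stood at 14.5, 13 and 11.7 FPKM and at 10.9, 8.78 and 9.92 FPKM, 1.32-fold lower and with the groups close to each other (limma adjusted p = 0.00674). Exons of Tmem132a cover 28.1% of the exon bases of Slc15a3 on the other strand in GENCODE M21, so without a stated strand setting reads of both cannot be told apart. Of 9 listed dendritic cell markers 8 are in the table, 4 were lower and 2 higher of 7 tested, with sums of 35.9 to 38.7 FPKM in syn-HSCT and 16.2 to 19.2 FPKM in allo-HSCT, and their part in these falls was not tested. Slc15a2, a peptide carrier of the plasma membrane, rose 1.40-fold from 1.72 ± 0.223 to 2.41 ± 0.141 FPKM (limma adjusted p = 0.00501). The fatty acid carriers Slc27a1 and Slc27a3 fell 1.69-fold and 1.73-fold (limma adjusted p = 1.25e-04 and 5.40e-04), and Slc27a4 stood at 5.65 ± 0.363 and 6.58 ± 0.60 FPKM and did not pass (limma adjusted p = 0.0595).

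Another 9 tested members have no single agreed substrate or belong to no group above. Of these 4 rose and 4 fell (median log2 fold change 0.23), next to 47.9% and 45.8% of all tested genes. Slc16a11 passed the filter through allo-HSCT alone, so its direction, and with it part of the count and the median, was set by the filter. Slc16a11, of the monocarboxylate carrier family, stood at 0.127, 0.268 and 0.267 FPKM in syn-HSCT and at 1.02, 1.10 and 1.38 FPKM in allo-HSCT. Its mean level of 0.692 FPKM was the lowest of all described members, and it entered the description through its allo-HSCT values alone, on 21 and 112 reads. The ratio of means was 5.27-fold (log2 fold change 0.82, SE 0.089, limma adjusted p = 2.42e-05). Slc16a5 of the same family stood at 1.04, 0.965 and 0.706 FPKM and at 1.92, 2.36 and 2.19 FPKM, a 2.38-fold rise without overlap (limma adjusted p = 7.69e-05). Slc16a6, again of that family, fell 1.35-fold from 13.3 ± 0.354 to 9.88 ± 0.277 FPKM (limma adjusted p = 5.95e-04). Exons of Amz2 cover 21.5% of its exon bases on the other strand. Of 69 described members found in GENCODE M21, Slc15a3 and Slc16a6 were the 2 that shared over 20%. Slc7a10 with Lrp3 (17.9%) and Slc26a10 with B4galnt1 (17.8%) lay just under that, also on the other strand, and further members shared less. The anion carrier Slc26a11 rose 1.62-fold (limma adjusted p = 0.00347) and the urea carrier Slc14a1 rose 1.32-fold from 9.81 ± 0.546 to 12.9 ± 0.758 FPKM (limma adjusted p = 0.00178). Slc66a2, Slc49a4, a lysosomal membrane protein, and Slc22a17, known as a receptor for lipocalin 2, fell 1.72-fold, 1.56-fold and 1.58-fold (limma adjusted p = 1.21e-04, 3.51e-04 and 0.00259). Slc26a10 stood at 0.866 ± 0.280 and 1.2 ± 0.455 FPKM and did not pass (limma adjusted p = 0.175).

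**Figure D3:**
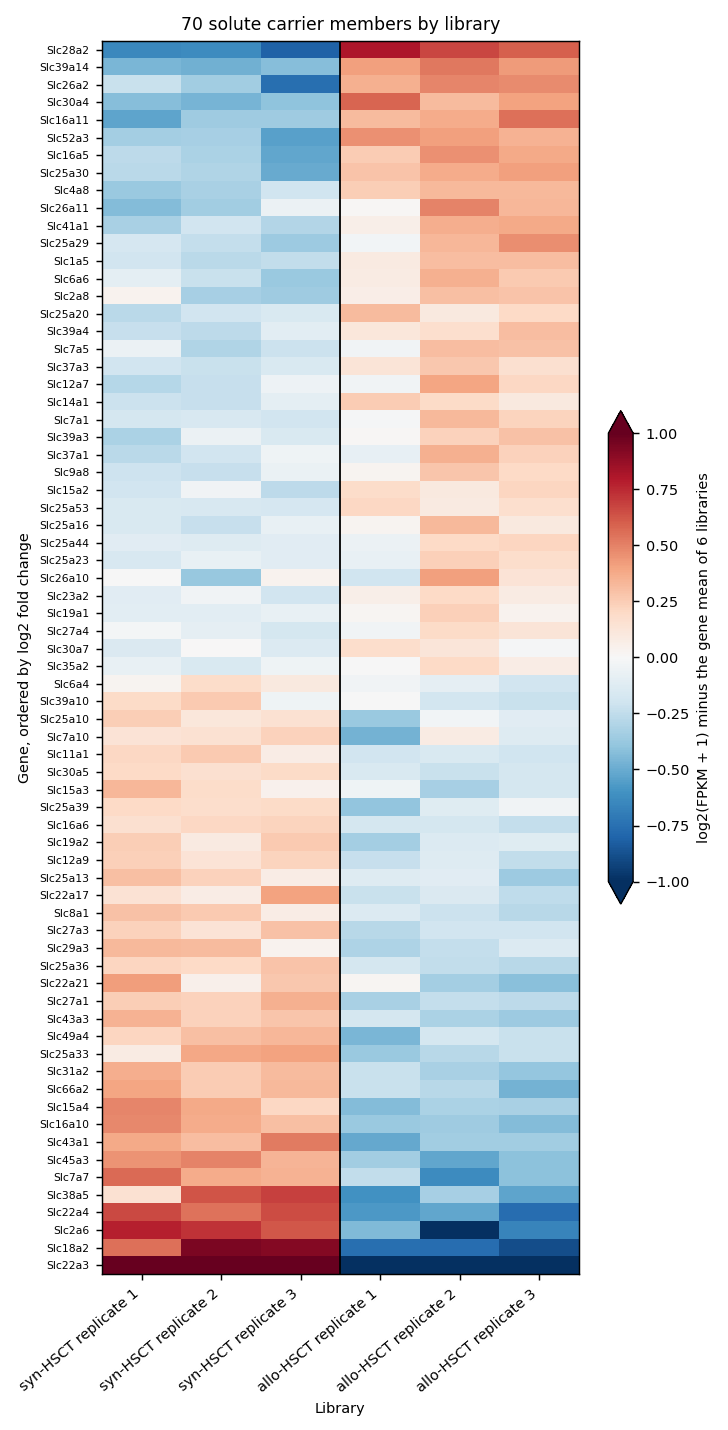
Level of 70 of the 71 solute carrier members in each library as log2(FPKM + 1) minus the mean of the gene over 6 libraries, with genes ordered by limma log2 fold change. Colours stop at 1 in either direction. Allo-HSCT replicate 1 is paler than replicates 2 and 3 in many rising genes and lay nearest to syn-HSCT in 26 of all 33 rising members.

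The allo-HSCT libraries were not alike. Among the 33 rising members, allo-HSCT replicate 1 was the lowest allo-HSCT library, and so the nearest to syn-HSCT, in 26 (78.8%), among them Slc1a5, Slc7a5, Slc7a1, Slc12a7 and Slc41a1. In the 34 falling members it was the nearest in 15 (44.1%). Over all tested genes of the table these shares were 62.5% of rising and 53.6% of falling genes. Without that library 36 members rose and 33 fell.

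**Figure D4:**
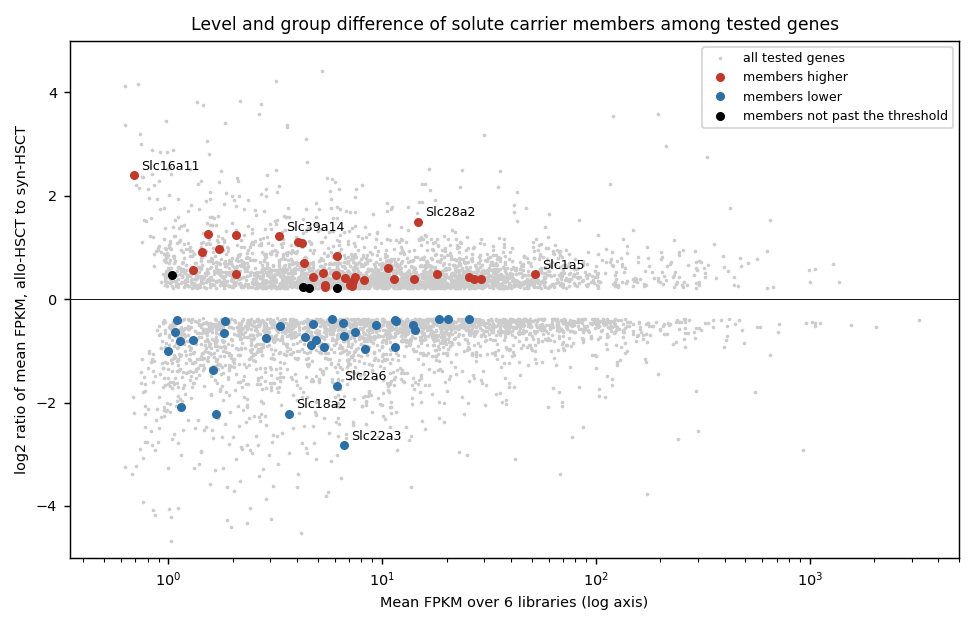
Mean FPKM over 6 libraries (log axis) against the log2 ratio of group means for 70 solute carrier members (red higher, blue lower, black not past the threshold) and all tested genes (grey). The band around 0 holds no well-read gene, 12 genes lie beyond the axis limit of 5, and 3 genes with a group at 0 are not drawn. Slc1a5 lies furthest right of the members at a mean of 52.0 FPKM.

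Levels of the described members ran from 0.692 to 52.0 FPKM with a median of 5.42 FPKM, below the median of 8.96 FPKM over all tested genes. Their median depth was 386 reads per library. The 63 members under the filter reached at most 1.09 FPKM in any library. All 3 members placed among carriers of monocarboxylates and other organic acids, Slc16a7, Slc16a4 and Slc13a3, were in that set. Slc16a7, the monocarboxylate carrier MCT2, stood at 1.09, 1.09 and 0.985 FPKM in syn-HSCT and at 0.369, 0.234 and 0.306 FPKM in allo-HSCT, and it was not tested. Slc44a4 and Slc17a4, with 10 reads each over the syn-HSCT libraries, are listed at 0 in all allo-HSCT libraries.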

How the data were processed

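The series gives RNA-seq of splenic CD3+ T cells, 3 syn-HSCT and 3 allo-HSCT libraries, made with ribosomal RNA depletion, per the labels' protocols. Limma appears in the submitters' processing notes with no role given, while aligner, counting tool, genome build and strand setting were not given in the sources used here. Each deposited value belongs to 1 gene and library. The header names no unit. The deposited values are FPKM as read from the values: with library totals found from 1036 single-transcript genes of GENCODE M21, all 8468 genes (100.0%) gave read numbers within 2.6e-05 of an integer (tolerance 0.0001).

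The 5460 genes that reached 1 FPKM in 3 libraries entered a fit of log2(FPKM + 1) by limma 3.58.1 under R 4.3.3, using a mean-variance trend, no covariate and Benjamini-Hochberg adjustment at 0.05. Log2 fold changes on this scale understate changes of low genes, and folds are ratios of mean FPKM. Because the table lacks small differences, adjusted p-values describe this table. Permuting 3 against 3 libraries gives no exact p under 0.1 and was not used. The fit was also run on simulated reads in which most genes did not differ. This table lacks small differences, so that run does not check the adjusted p-values given here. Replicate numbers were not treated as pairs in this fit. Named members are, per substrate group, up to 3 rises and 3 falls with the largest log2 fold change and no overlap between groups and the highest level, together with members of set paralog pairs and heterodimers, and those not past the threshold; Slc16a10, Slc37a1, Slc14a1, Slc22a21, Slc27a1, Slc27a3, Slc25a10, Slc25a16, Slc25a23, Slc25a39, Slc25a44, Slc25a53 and the members below the filter were added after their values were seen. Members, substrate groups and markers were chosen with earlier results of these data known. For 1 member no result of its own is reported here; it is counted in the totals and not drawn in the figures.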

Additional observations from a re-analysis of the deposited data

How the results depend on the processing

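Among 14 alternatives, the counts of rising and falling members and of all genes stayed within 1.5 times of the reported ones under all but 1. With a mean of at least 5 FPKM required, 39 members were tested, of which 21 rose and 17 fell, and 1604 of all genes fell, because fewer genes were tested. Leaving out 1 library at a time gave 27 to 36 rising and 32 to 33 falling members. All 67 called members kept their direction wherever they were fitted, and 24 of 33 rises and 31 of 34 falls were past the threshold in every such fit. Removing the gene length trend moved the median log2 fold change of all tested genes from 0.20 to 0.09 and left 27 rising and 32 falling members. With the replicate block 32 members rose and 34 fell. Deviations of same-numbered libraries correlated at -0.02, -0.20 and 0.08, and those of differently numbered ones at -0.17 to 0.24. These values show no pairing by number, but with 3 libraries in each group they cannot exclude one. Under the 5 FPKM filter the group medians turned to 0.36 for amino acids (5 members left), to 0.47 for neurotransmitters and osmolytes (1 member left) and to -0.40 for members with no substrate group (3 left). Without any filter 36 of 134 members rose and 51 fell. Depth limits Slc16a11, Slc38a5 and Slc22a4 most among the larger changes. With a pseudocount of 0.1, Slc16a11 (log2 fold change 2.0) passed Slc28a2 (1.49) as the largest rise.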
